A study of Arabidopsis thaliana with 24 samples.

Results

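The moderate late fallers were 39 genes of Arabidopsis thaliana root meristems whose mean RNA level over 0.5, 1 and 2 h on dexamethasone was near that of 0 h and whose mean over 4, 5 and 6 h lay lower. They were chosen by their measured values on the log2 scale. A gene was kept when its mean over all 24 arrays was at least 5, when its mean over 4, 5 and 6 h (the late times) lay 0.4 to 0.9 below its mean over 0.5, 1 and 2 h (the early times), and when the early mean lay within 0.4 of the mean at 0 h. Of 16554 genes, 6175 had a mean of at least 5, 55 of these had a late mean in the window and 41 of those also had an early mean near 0 h. The rule leaves out glutathione transferase genes and some others by name, here GSTU25 and WRKY22, which gave 39. The difference between late and early times, and the lack of one between early times and 0 h, are therefore properties of the choice and not findings.

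All seedlings were of the Col-0 ecotype and carried both pRPS5A::TMO5:GR and pRPS5A::LHW:GR, the line abbreviated dGR. TMO5 and LHW are basic helix-loop-helix transcription factors that work as a pair in the proliferation of vascular cells. Here each was joined to the glucocorticoid receptor domain, which holds a protein in the cytoplasm until a steroid such as dexamethasone releases it to the nucleus. The RPS5A promoter is active in dividing cells broadly, so the pair was present beyond the vascular cells where it normally acts. Seedlings aged 4 days were moved to medium with dexamethasone, root meristems were taken after 0, 0.5, 1, 2, 3, 4, 5 or 6 h, and 3 arrays were measured at each time. Every array, those of 0 h included, came from the same line, and seedlings moved without the steroid or lacking the constructs were not analysed here. The steroid, the transfer and the elapsed time can therefore not be told apart. Nothing in the labels tells if repeats were grown as separate cultures, so p-values here cover the spread between these arrays and no more.

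A gene whose RNA declines hours after a transcription factor is switched on need not be bound by that factor, since an RNA level also falls when synthesis stops and existing transcripts decay. Roots change the expression of many defence, cell wall and detoxification genes for some hours after seedlings are handled or moved to fresh medium. In RNA from whole root tips, fewer cells of a type and less RNA per cell cannot be told apart.

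The medians of the 24 arrays ran from 3.86 to 4.01 (log2), and precision is limited by having 3 arrays a time. The spread of arrays around their time mean over all genes had an SD of 0.197 to 0.215 at 0 h and of 0.152 to 0.165 at 6 h. BBM, a gene of the root stem cell niche, had a mean log2 value of 5.20 at 0 h, 5.16 at the early and 5.02 at the late times, and it was the only one of the 5 niche markers considered that was measured. No xylem and no root cap marker of the lists was measured under a single gene name.

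Only 2 members, ASPGB1 and GH3.1, had a symbol other than their locus name in the tables used. The families given below for the other loci are general knowledge about these loci and not part of the deposited data, and 7 members are left without a role. By these families the members comprised 6 genes of proteins with cysteine- and histidine-rich C1 domains, 5 of regulation and signalling, 7 of defence-type, lectin or small secreted proteins, 11 of metabolic enzymes and 3 of ATPases or transport. Each member was measured by 1 probe set.

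**Figure D1:**
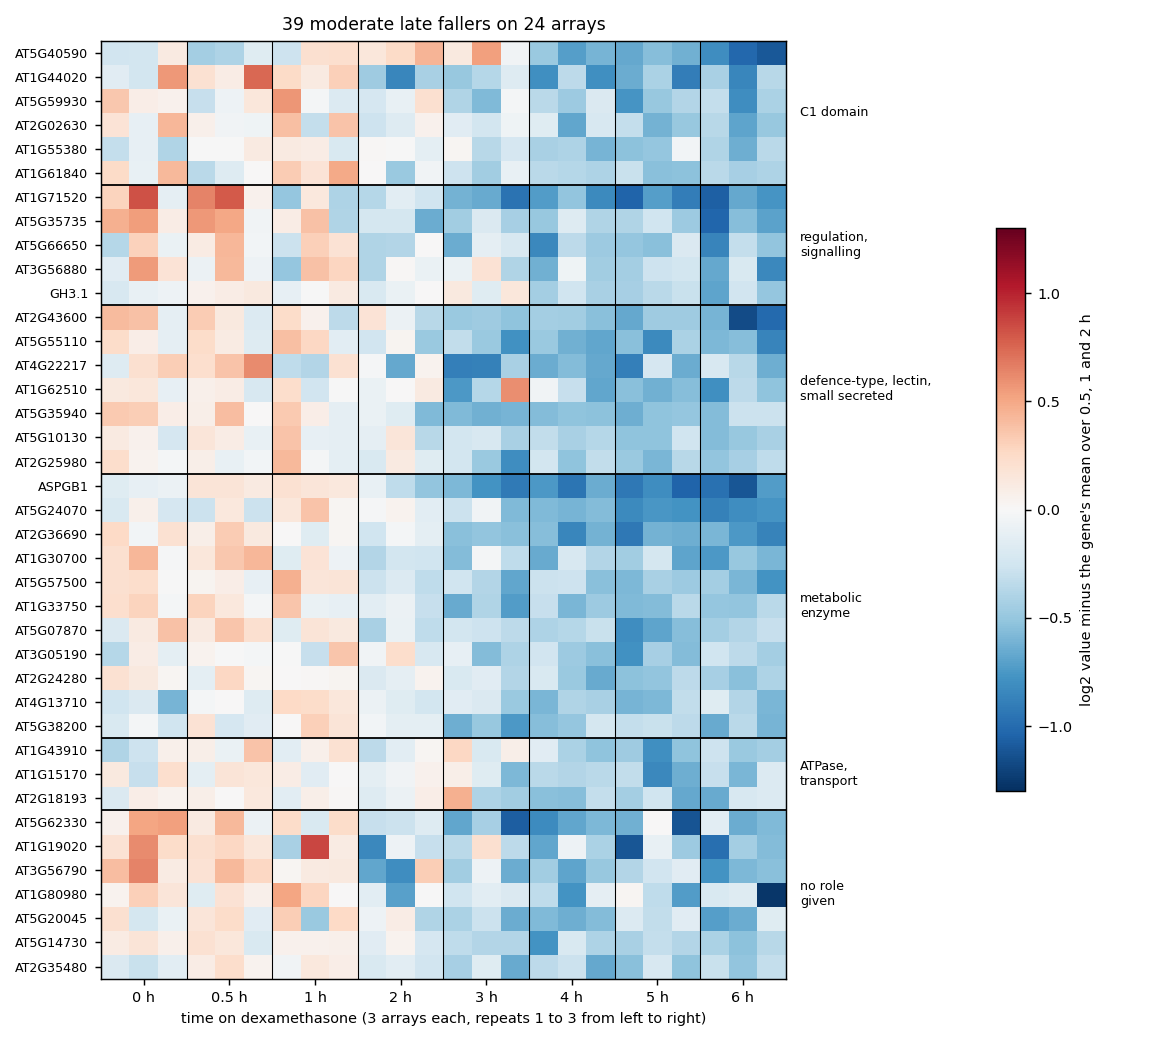
Log2 values of the 39 members on all 24 arrays, each minus the gene's mean over 0.5, 1 and 2 h, with genes in rows grouped by family and arrays in columns by time. Red is above and blue below that mean, and 37 members have a mean below 0 at 2 h and 36 at 3 h, where AT5G40590, AT1G43910 and GH3.1 lie above.

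The metabolic enzymes held the widest range of falls. ASPGB1 (AT3G16150), which encodes an asparaginase that releases ammonium from asparagine, lay at 5.68, 5.73 and 5.76 at 0 h. Its 9 early arrays ran from 5.33 to 6.04 with a median of 5.98, its 3 h arrays read 5.26, 5.06 and 4.92, and its 9 late arrays ran from 4.73 to 5.20 with a median of 4.91. All late arrays lay below all early arrays, and the lowest early value came from 2 h. The late mean was 0.88 ± 0.07 (SE) below the early mean, the largest difference among the members.

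AT5G24070, a class III peroxidase gene, had log2 values of 7.57, 7.84 and 7.55 at 0 h, early arrays from 7.49 to 8.14 (median 7.80), 3 h arrays of 7.49, 7.72 and 7.20, and late arrays from 6.89 to 7.21 (median 7.0). Its highest mean was at 1 h, 7.95 ± 0.17 (SD, n = 3), and its level at 3 h still overlapped the early arrays. Its late mean was 0.73 ± 0.08 (SE) below the early mean. AT2G36690, of the oxoglutarate-dependent dioxygenase family, read 6.53, 6.23 and 6.47 at 0 h, 6.01 to 6.60 on the early arrays (median 6.27), 5.73, 5.76 and 5.73 at 3 h, and 5.34 to 5.72 on the late arrays (median 5.64). Here the 3 h arrays already lay below every early array, by a margin larger than their own spread. The late mean was 0.71 ± 0.07 (SE) below the early mean.

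Among the brighter enzymes, AT1G33750, a terpene synthase gene, was the member with the highest mean over 24 arrays, 8.47. It read 8.92, 8.99 and 8.67 at 0 h, 8.40 to 9.06 on the early arrays (median 8.62), 8.04, 8.31 and 7.97 at 3 h and 8.11 to 8.40 on the late arrays (median 8.20). Its lowest mean was at 3 h, 8.10 ± 0.18 (SD, n = 3), against 8.25, 8.21 and 8.24 at 4, 5 and 6 h. AT5G07870, of the HXXXD acyltransferase family, had means of 8.72, 8.85, 8.67 and 8.34 over the first 4 times, then of 8.34, 8.27, 7.94 and 8.24. Its early arrays ran from 8.20 to 8.98 and its late arrays from 7.81 to 8.33, so the sides overlapped through arrays of 2 h.

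AT5G38200, of the class I glutamine amidotransferase family, had covered the largest share of its step by 3 h, as given further on. It read 6.25, 6.42 and 6.19 at 0 h, 6.23 to 6.76 on the early arrays (median 6.41), 5.82, 5.96 and 5.70 at 3 h, and 5.79 to 6.22 on the late arrays (median 6.10). The late arrays lay below all early arrays, by a margin of hundredths at the nearest pair, and 2 of the 3 arrays at 3 h lay within the late range. The late mean was 0.42 ± 0.07 (SE) below the early mean. AT1G30700, of the berberine bridge enzyme family of FAD-dependent oxidases, had means of 6.93, 7.03, 6.70 and 6.42 at 0, 0.5, 1 and 2 h and of 6.30, 6.27 and 6.11 at 4, 5 and 6 h.

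The remaining enzymes are given by their means. AT5G57500, of the galactosyltransferase family, went from an early mean of 6.86 to a late mean of 6.37. For AT3G05190, of the aminotransferase family that acts with pyridoxal phosphate, the means were 5.56 and 5.11. AT2G24280, a serine carboxypeptidase-type gene, had means of 5.36 and 4.91, and its 9 late arrays lay below its 9 early arrays. AT4G13710, of the pectin lyase-like proteins that act on cell wall pectin, had means of 5.62 and 5.17, with a mean of 5.27 at 0 h that left it 0.10 above its late level. This was the smallest difference between 0 h and the late times among the members, which ranged from -1.14 to -0.10 with a median of -0.61.

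Genes of regulation and signalling included the second largest difference. AT1G71520, a transcription factor gene of the AP2/ERF family that binds DNA in stress responses, began at 6.57, 7.11 and 6.16 and read 6.92, 7.08 and 6.34 after 0.5 h. The 1 h arrays gave 5.78, 6.42 and 5.88 and the 2 h arrays 5.91, 6.14 and 6.02. The 3 h arrays gave 5.67, 5.63 and 5.32, followed by a late range of 5.22 to 5.77 (median 5.51). Its repeats at 0 h had an SD of 0.48, and the late arrays lay below all early ones, with a difference in means of 0.80 ± 0.12 (SE). Relative to 0 h its late mean was 1.14 lower, the most among the members.

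GH3.1 (AT2G14960), of the family of auxin-inducible enzymes that join amino acids to auxin, kept its level longer. It read 5.98, 6.09 and 6.12 at 0 h, 5.99 to 6.32 on the early arrays (median 6.19), 6.32, 6.03 and 6.34 at 3 h, and 5.50 to 5.94 on the late arrays (median 5.77). Of its 3 h arrays, 2 lay within or at the top of the early range and 1 just above it, and all lay above every late array. GH3.1 also had the smallest spread between repeats, a pooled SD within times of 0.12, against 0.12 to 0.38 (median 0.20) over the members.

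AT5G35735, an auxin-responsive gene of a membrane cytochrome type, had means of 7.22, 7.18, 6.88 and 6.48 at 0, 0.5, 1 and 2 h, of 6.50 at 3 h and of 6.50, 6.48 and 6.09 at 4, 5 and 6 h. AT5G66650, of the calcium uniporter family of organelle membranes, had an early mean of 5.99 and a late mean of 5.48. AT3G56880, of the VQ motif proteins that partner WRKY factors, had means of 7.26 and 6.84, but its arrays at 0 h spread from 7.11 to 7.81 and its early and late arrays overlapped between 6.76 and 7.20.

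The C1 domain genes, which encode proteins with zinc-binding cysteine- and histidine-rich repeats and few known functions, differed among themselves in timing, with changes from 0.5 to 2 h between -0.93 and 0.61. AT5G40590 began at 5.78, 5.79 and 6.15, then read 5.59, 5.63 and 5.87 after 0.5 h and 5.76, 6.24 and 6.25 at 1 h. Its arrays were at 6.18, 6.28 and 6.47 by 2 h and at 6.16, 6.56 and 5.98 by 3 h, before its late arrays ran from 4.93 to 5.55 (median 5.36). Its arrays at 2 h lay above all arrays at 0.5 h, and the late arrays lay below every other array of the course.

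AT1G44020 took the opposite path. It started from 5.61, 5.52 and 6.32, then read 5.96, 5.86 and 6.51 after 0.5 h and 6.01, 5.88 and 6.07 after 1 h. By 2 h its arrays were at 5.30, 4.91 and 5.34. At 3 h it lay at 5.27, 5.39 and 5.59 and its late arrays ran from 4.86 to 5.42 (median 5.12). The arrays at 2 h lay within the late range, while those of 0.5 and 1 h lay above it.

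The remaining C1 domain genes had late means below early means by 0.40 to 0.47. AT5G59930 went from 5.21 to 4.75, AT2G02630 from 6.00 to 5.56, AT1G55380 from 5.63 to 5.20 and AT1G61840 from 7.35 to 6.95. AT1G61840 was high at 0 h (7.54 ± 0.27, SD, n = 3) and 1 h (7.69 ± 0.15) and lower at 0.5 h (7.18 ± 0.18), so its early times differed among themselves by more than the 0.40 between early and late means.

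Among the defence-type, lectin and small secreted proteins, AT2G43600, of the chitinase family that cleaves fungal cell wall polymer, read 6.60, 6.57 and 6.07 at 0 h, 5.83 to 6.52 on the early arrays (median 6.25), 5.71, 5.73 and 5.67 at 3 h and 5.03 to 5.75 on the late arrays (median 5.65). Its late arrays lay below its early arrays, and its lowest mean, 5.27 ± 0.29 (SD, n = 3), was at 6 h. AT5G55110, of the stigma-specific STIG1 family of cysteine-rich secreted proteins, had early arrays from 7.08 to 7.95 (median 7.60) and late arrays from 6.70 to 7.15 (median 6.98), with an overlap through 1 array of 2 h.

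AT4G22217, a defensin-like gene, read 5.68, 6.06 and 6.17 at 0 h and 4.96, 4.97 and 5.43 at 3 h, its lowest time. Early arrays ran from 5.18 to 6.46 and late arrays from 4.96 to 5.64, so they overlapped. AT5G35940 and AT2G25980 encode jacalin-type lectins, which bind sugars. AT5G35940 had means of 6.97, 6.92 and 6.54 at 0.5, 1 and 2 h, 6.21 ± 0.03 (SD, n = 3) at 3 h and 6.43 at 6 h. The means of AT2G25980 were 8.49, 8.60, 8.43 and 8.00 at 0.5, 1, 2 and 3 h and 8.09 at 6 h. Both lectin genes had their lowest mean at 3 h.

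AT1G62510, of the lipid-transfer and protease-inhibitor family, had an early mean of 5.90 and a late mean of 5.41, and its 3 h arrays spread from 5.15 to 6.50. AT5G10130, of the pollen allergen and extensin type, had means of 7.61 and 7.18. Of the ATPase and transport genes, AT1G43910 and AT2G18193, both of the AAA-type ATPase family, had early means of 5.42 and 6.73 and late means of 4.97 and 6.30. AT1G15170, a MATE efflux family gene, had means of 5.42 and 4.98.

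The 7 members without a role had early means between 5.21 and 7.26. AT5G62330 went from 6.17 to 5.60, AT1G19020 from 5.21 to 4.67, AT3G56790 from 5.46 to 4.98 and AT1G80980 from 5.39 to 4.96. The means were 5.91 and 5.47 for AT5G20045, 7.26 and 6.84 for AT5G14730 and 5.87 and 5.46 for AT2G35480. AT1G19020 and AT1G80980 had the largest pooled SD within times among the members, 0.38 and 0.34.

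**Figure D2:**
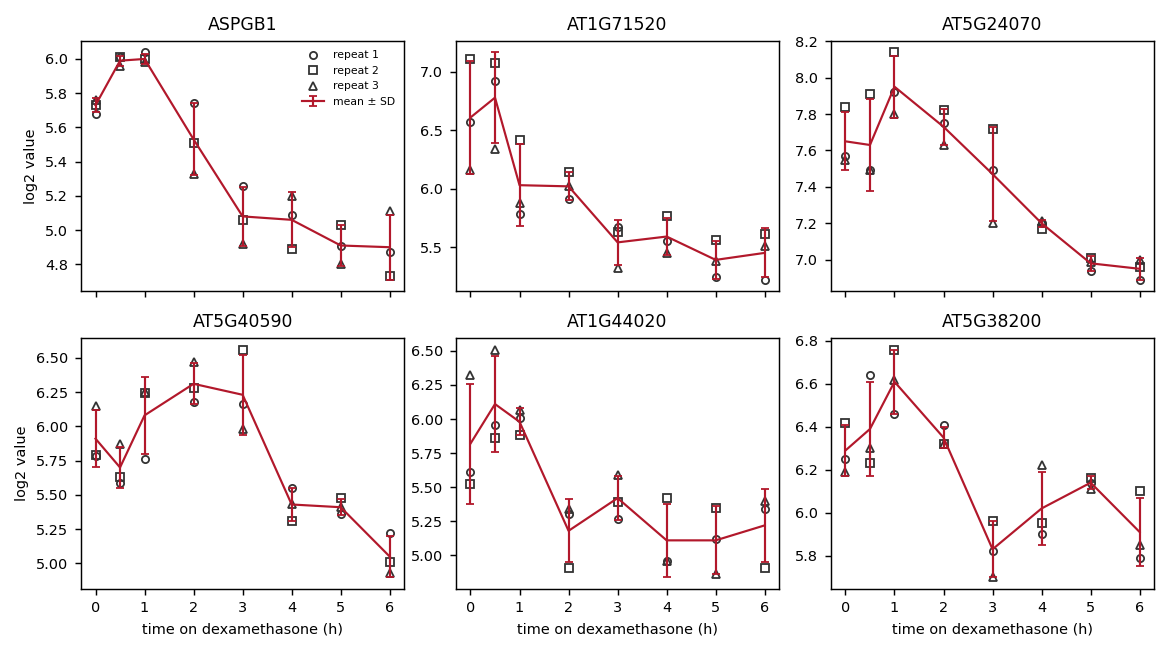
Log2 values of 6 members against time on dexamethasone in hours, with the 3 repeats as open symbols and the mean ± SD (n = 3) as a line. ASPGB1 and AT1G44020 are already lower at 2 h, AT5G40590 is at its highest mean at 2 h, 6.31, and AT5G38200 is lowest at 3 h, 5.83.

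In the comparison the rule used, limma with Benjamini-Hochberg adjustment over all 16554 genes gave an adjusted p under 0.05 for a fall in 36 of the 39 members, against 2.6% of all genes and 4.32% of genes with a mean of at least 5. Nothing is read from this count, because the members were chosen for that difference. AT1G19020, AT1G80980 and AT3G56880 were the exceptions, with adjusted p of 0.0531, 0.0732 and 0.0686. All 9 late arrays lay below all 9 early arrays in 12 members, against 0.308% of all genes. The choice favours this as well, so nothing is read from it either. The member nearest the lower end of the window was ASPGB1 at -0.882, and AT1G14550 at -1.003 was the nearest gene beyond it. At the upper end the members AT1G61840, GH3.1 and AT2G35480 lay at -0.401, -0.402 and -0.404, while AT3G59370, AT1G23935 and AT4G23590 missed the window at -0.396, -0.396 and -0.394.

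No member had its highest mean after 2 h or its lowest before 3 h, a division that follows largely from the rule. For 13 members the highest mean was that of 0 h, for 15 that of 0.5 h, for 10 that of 1 h and for AT5G40590 that of 2 h. The lowest mean belonged to 6 h in 17 members, to 5 h in 11, to 4 h in 5 and to 3 h in 6. The early mean lay below the 0 h mean in 25 members and above it in 14, from -0.39 for AT3G56790 to 0.35 for AT4G13710 with a median of -0.10.

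**Figure D3:**
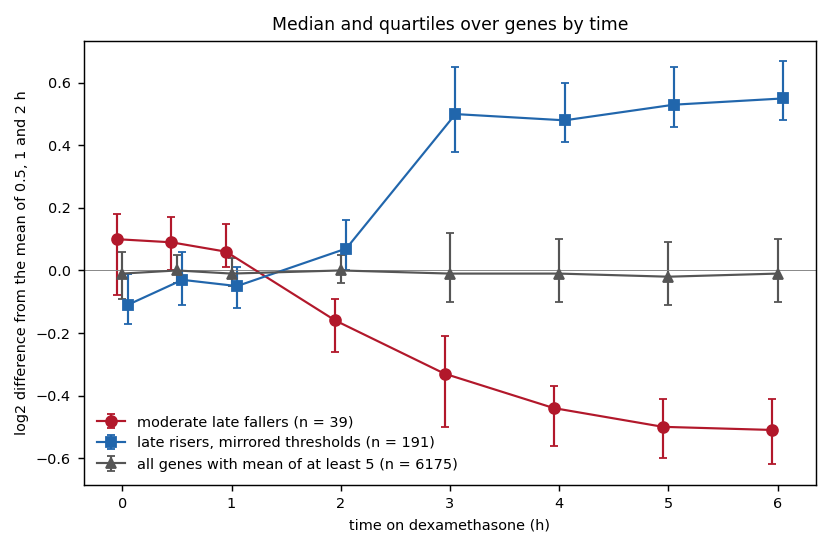
Median over genes, with quartiles as bars, of the log2 difference from each gene's mean over 0.5, 1 and 2 h, against time in hours. The 39 members step down from 0.06 at 1 h to -0.16, -0.33 and -0.44 at 2, 3 and 4 h, while 191 genes picked with the thresholds mirrored upward go from 0.07 at 2 h to 0.50 at 3 h, and all 6175 genes with a mean of at least 5 stay near 0.

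Whether the members were already lower at 2 h than at 0.5 h was asked separately. These times enter the early mean with equal weight, so their difference is orthogonal to what the rule used, given equal spread at all times. The difference was below 0 in 35 of 39 members, with a median of -0.24. Over all 6175 genes with a mean of at least 5 it was below 0 in 50.1%, with a median of 0. No member was called by limma over all genes, where 0.326% of genes were called, 0.115% as falls and 0.211% as rises. An unadjusted p under 0.05 was reached by 15 members, 14 of them lower at 2 h, against 7.77% of genes with a mean of at least 5. Members are not independent of each other, so these counts describe the arrays and are not a test of the group.

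The differences from 0.5 to 2 h that were largest or had the smallest p belonged to genes of different roles. AT1G44020 lay 0.93 ± 0.21 (SE) lower at 2 h (limma adjusted p = 0.0599, and from 0.0215 to 0.276 over 33 alternatives), and its 3 arrays at 2 h lay below the 3 at 0.5 h. The difference was -0.76 ± 0.22 for AT1G71520 (limma adjusted p = 0.189) and -0.70 ± 0.19 for AT5G35735 (limma adjusted p = 0.158). AT1G30700 and AT5G07870 had differences of -0.61 ± 0.15 and -0.51 ± 0.13, and ASPGB1 one of -0.46 ± 0.12, with limma adjusted p of 0.107, 0.0955 and 0.107. AT4G22217 and AT1G19020 had differences of -0.62 ± 0.21 and -0.61 ± 0.28, with limma adjusted p of 0.343 and 0.622. AT3G56790 had a difference of -0.68 ± 0.21 (limma adjusted p = 0.257) that was -1.03 without array 3 of 2 h, where it was called by limma (adjusted p = 0.00561, and up to 0.645 over all alternatives). AT5G40590 was the only member with an unadjusted p under 0.05 on the other side, 0.61 ± 0.15 higher at 2 h (limma adjusted p = 0.0979, and from 0.0362 to 0.374 over the alternatives). When only the 6175 genes with a mean of at least 5 were tested, limma called 77 of them. Among these were falls of AT1G30700 (limma adjusted p = 0.0406), AT1G44020 (0.0224), ASPGB1 (0.036) and AT5G07870 (0.0326) and a rise of AT5G40590 (0.0362). With a term for the repeat number in the model (the replicate block), limma called 5 falls and 0 rises among the members. The falls were those of AT1G30700 (limma adjusted p = 0.0164), AT5G35735 (0.0299), AT1G71520 (0.033), AT5G07870 (0.0332) and AT1G44020 (0.0415). Those names were chosen after their values were seen.

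**Figure D4:**
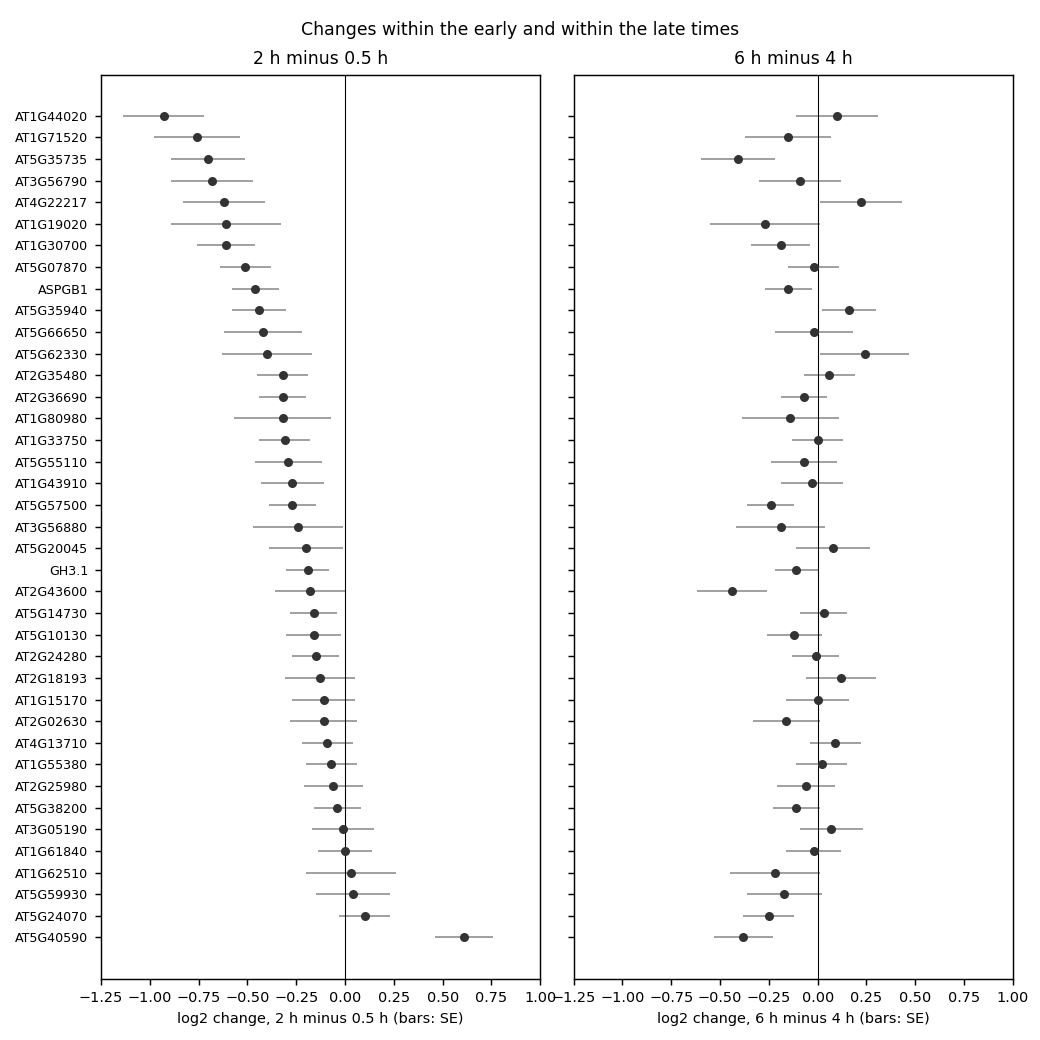
Log2 change from 0.5 to 2 h (left) and from 4 to 6 h (right) for each of the 39 members in the same order, with the limma SE as bars. On the left 35 points lie below 0 and reach -0.93, and on the right 27 lie below 0 and the points stay between -0.44 and 0.24.

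The time of 3 h was left out of the rule's differences. Its place between the early and late means still rests on means that the rule used. The choice alone would tend to put 3 h between them, near a share of 50%. Expressed as a share of the step from the early to the late mean, the level at 3 h had covered a median of 67.6%. The share exceeded 50% in 28 members, among them 8 at 100% or more. In the 191 genes chosen by the mirrored thresholds the median share at 3 h was 95.8%, and 179 exceeded 50%. The difference between these groups of genes was not tested.

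The share was also taken by family, without a test, and the ranges of the families overlapped. Its median was 86.6% over the 7 defence-type, lectin and small secreted genes, 74.4% over the 11 enzymes, 63.9% over the 5 genes of regulation and signalling, 49.3% over the 6 C1 domain genes and 31.5% over the 3 ATPase and transport genes. The 7 members without a role had a median of 86%, with a range of 29.6 to 127%. Every family held a wide range, such as 41.3 to 147% for the enzymes and -27.9 to 71.2% for the C1 domain genes. The negative values, where 3 h lay above the early mean, belonged to AT5G40590 (-27.9%), AT1G43910 (-9.99%) and GH3.1 (-9.94%).

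**Figure D5:**
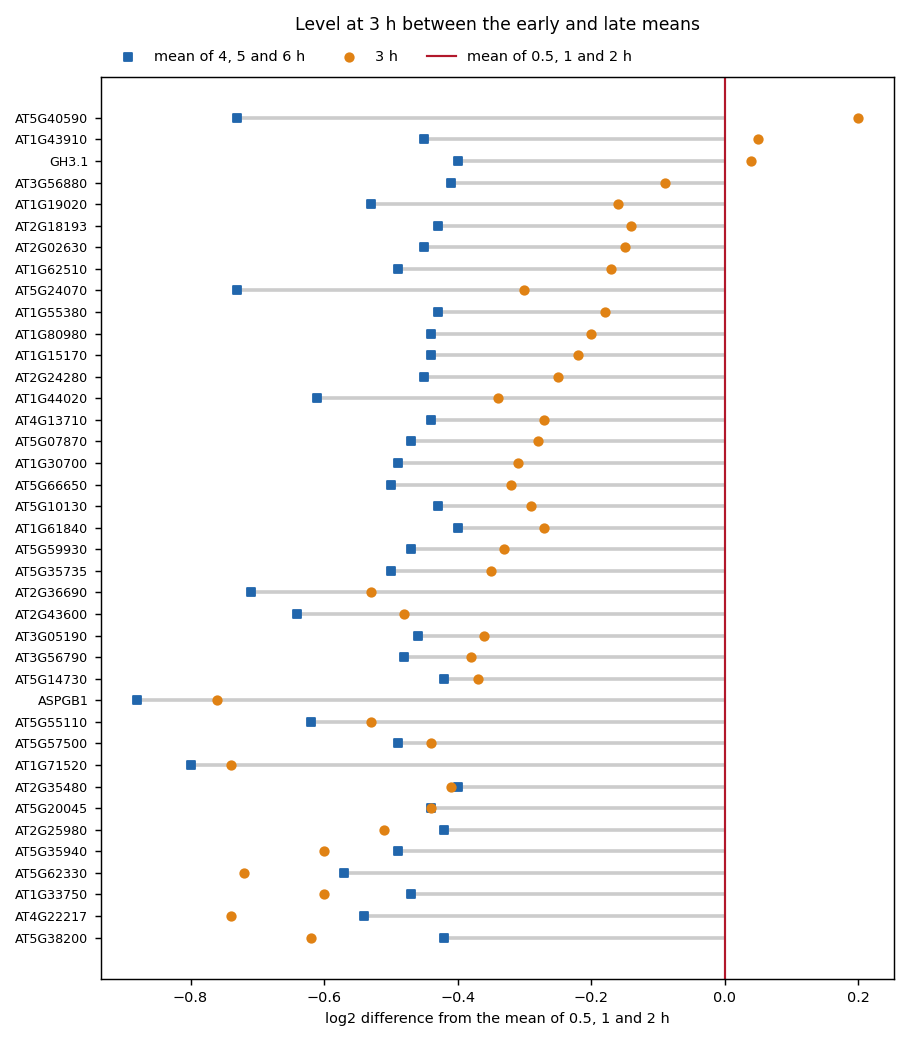
Level at 3 h (circles) and mean of 4, 5 and 6 h (squares) of the 39 members, as log2 difference from the mean of 0.5, 1 and 2 h (vertical line at 0). Members are ordered by the share of the step covered at 3 h, from AT5G40590 above the early mean to AT5G38200, which lies beyond its late mean.

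A test of 3 h against the mean of the other 7 times, which is orthogonal to the rule's differences, is below 0 where 3 h lies under the mean of those times, which include 0 h and 3 times on either side. It was below 0 in 29 of 39 members (median -0.13), and in 48.1% of genes with a mean of at least 5 (median 0). No member was called by limma over all genes, where 0.109% of genes were called, 0.00604% below and 0.103% above. Of genes with a mean of at least 5, 0.0162% were called below. An unadjusted p under 0.05 was reached by 16 members, 13 below and 3 above, against 13.7% of genes with a mean of at least 5. The lowest value, -0.53 ± 0.17 (SE), was that of AT5G62330 (limma adjusted p = 0.259). The smallest p on the low side belonged to other genes. AT5G38200, AT5G35940 and AT1G33750 each had a difference of -0.42, with SE of 0.09, 0.10 and 0.10 and limma adjusted p of 0.0881, 0.116 and 0.116. AT5G40590 lay 0.53 ± 0.12 above (limma adjusted p = 0.0881). Its adjusted p ran from 0.0138 to 0.371 over 32 alternatives. Without array 3 of 0, 0.5, 1 and 2 h, but with array 3 of 3 h kept, limma called 231 of all genes, against 18 with all arrays. AT5G38200, AT5G35940, AT1G33750 and AT5G40590 were among the 231, with limma adjusted p of 0.041, 0.00766, 0.0255 and 0.0138.

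No member was called between 4 and 6 h, where limma recovered only 36% of simulated falls of 0.5 log2. The simulated data also held changes of 1 and 2 log2, which ease calls of small ones under the adjustment. Recovery in the measured data may therefore be lower. Every member changed by less than 0.5 log2, so the lack of calls does not show that a member had stopped falling. The difference from 4 to 6 h was below 0 in 27 of 39 members, with a median of -0.07 and a range from -0.44 to 0.24, and in 51% of genes with a mean of at least 5. Limma called 0% of all 16554 genes at this comparison, in either direction and under each of 33 alternatives, and 627 genes had an unadjusted p under 0.05. An unadjusted p under 0.05 was reached by 3 members, against 2.17% of genes with a mean of at least 5. These were AT2G43600 (-0.44 ± 0.18, SE), AT5G35735 (-0.41 ± 0.19) and AT5G40590 (-0.38 ± 0.15). In AT5G40590 the arrays at 6 h (5.22, 5.01 and 4.93) lay below those at 4 h (5.55, 5.31 and 5.43).

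The members were also compared between repeats. Averaged over the members, repeat 3 differed from the mean of repeats 1 and 2 by -0.04, -0.08, -0.02, 0.02 and -0.11 in the order of 0, 0.5, 1, 2 and 3 h. Repeat 3 was the lowest of the 3 arrays in 19, 19, 13, 15 and 22 members in the same order. Among genes with a mean of at least 5 this held for 29.7, 33.1, 30.2, 32.1 and 38.2%. At 4, 5 and 6 h the members' mean differences were -0.02, 0.01 and -0.0. Repeat 3 was then lowest in 13, 8 and 9 members (33.3, 20.5 and 23.1%), against 34.1, 29.9 and 33.5% of genes with a mean of at least 5. Without array 3 of 0, 0.5, 1 and 2 h, 27 of the 39 still met every threshold and the median difference between late and early was -0.48, against -0.47 in all arrays. The median from 0.5 to 2 h was then -0.24, below 0 in 33 of 39 members, and the median of 3 h against the other times was -0.14.

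The genes next to the members on the chromosome were compared between the same times. Among protein-coding neighbours on either side, 56 were measured under a single name and none was a member. Between late and early times 4 of them fell and 3 rose by limma, 7.14% and 5.36%, against 2.6% and 4.39% of all genes, and their median difference was -0.02. AT4G22214, the defensin-like neighbour of AT4G22217, fell by 1.03 ± 0.07 (limma adjusted p = 3.5e-08), beyond the window. AT2G02620, next to AT2G02630, fell by 0.52 ± 0.10 (limma adjusted p = 0.00213). AT5G07860, next to AT5G07870, fell by 0.37 ± 0.08 (limma adjusted p = 0.00463) and AT5G62340, next to AT5G62330, by 0.35 ± 0.05 (limma adjusted p = 1.9e-04). AT2G02620 and AT5G62340 were dim, with means over 24 arrays of 3.01 and 3.98, under the 5 required of members. Whether probes of similar neighbours share signal was not tested. By contrast AT2G43590, beside the chitinase family gene AT2G43600, rose by 0.58 ± 0.13 (limma adjusted p = 0.008), from early means of 7.03, 7.43 and 7.14 to 7.62, 7.85 and 7.86 at 4, 5 and 6 h. AT2G18196, next to AT2G18193, and AT5G38210, next to AT5G38200, rose by 0.48 ± 0.12 and 0.32 ± 0.09, with limma adjusted p of 0.0201 and 0.0348. The mean of AT2G18196, 4.24, was also under that of any member.

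Genes of 23 lists and families of immunity, hormone, stress, iron, clock, cell cycle and cell wall functions were set beside the members. Of these, 16 had any gene measured under a single gene name. Probe sets without such a name were not matched, so a gene not counted here may still be on the array. Families were matched by symbol, which members with only a locus name could not match, so membership in them is not counted. Over their 160 measured genes, 5 fell and 20 rose between early and late times by limma, 3.12% and 12.5%, against 2.6% and 4.39% of all genes. Of 7 measured WRKY genes, encoding factors of defence and stress responses, WRKY22 fell by 0.72 ± 0.13 (limma adjusted p = 0.00167), while WRKY42 and WRKY47 rose by 0.81 and 0.71. Of 51 UDP-glycosyltransferases, enzymes that attach sugars to small molecules, 8 rose, and the largest rise was that of UGT72E1 by 0.90 ± 0.15 (limma adjusted p = 9.44e-04). Of 31 xyloglucan-modifying and expansin genes, 6 rose and 2 fell, among them XTH26 with a rise of 1.05 ± 0.19 and EXPA15, which fell by 0.36 ± 0.06. PUB22, one of 10 plant U-box ubiquitin ligases measured, fell by 0.26 ± 0.08 with a limma adjusted p of 0.0482. Of 3 measured genes of the immunity list only BIK1 was called, with a rise of 0.47 ± 0.10 (limma adjusted p = 0.00788).

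Of the measured markers of cell types, only EXPA7, EXPA18 and RCA were called between early and late times. The root hair expansins EXPA7 and EXPA18, both measured of 6 epidermis markers, had early means of 8.24 and 6.72 and late means of 8.64 and 7.33, and both rose by limma (adjusted p = 0.0473 and 0.00789). RCA, the only measured one of 3 shoot markers and the gene of Rubisco activase, rose from 4.78 to 5.18 (adjusted p = 0.00345). The endodermis marker AT4G28100 had means of 7.38 and 7.57, the cortex marker AT1G62500 of 1.58 and 1.47, and the phloem genes OPS and CLE45 of 4.48 and 4.60 and of 2.29 and 2.28, none of them called. Their part in the members' levels was not tested.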

How the data were processed

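RNA of root meristems was labelled with an Affymetrix whole-transcript assay, per the labels' protocols, and measured on 24 arrays. The deposited values are log2 expression per probe set, made by the authors with RMA per the submitters' processing notes. Its version is not given in the sources used here, nor is a genome build. Such normalization makes the distributions of arrays alike, so a shift of all genes would not be seen. Of 38408 probe sets, 16746 were paired with 1 gene and averaged per gene, 758 had several genes and 20904 were unnamed here. Symbols and the order of neighbouring genes came from the RefSeq table of TAIR10.1 (16601 probe sets matched), and no coordinates or sequences were used.

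Using limma 3.58.1 (R 4.3.3), a linear model with a mean for each of the 8 times took in the 24 arrays, with Benjamini-Hochberg adjustment over 16554 genes and calls at an adjusted p under 0.05. The fit was tested on simulated data for 6 h against 4 h. It recovered 90 of 250 falls of 0.5 log2, 217 of 250 falls of 1, 250 of 250 falls of 2 and 220 of 250 rises of 1. Of 824 calls 47 were false, 5.7%. Groups came from the labelled treatment time. Tables and figures used Python 3.11.15, pandas 2.3.3 and matplotlib 3.10.9. Alternatives changed the variance model, array weights, scaling, probe set choice, filter, repeat block and arrays.

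The members and lists were chosen with earlier results of these data known. All members were named, in more detail those with the largest differences or highest levels. Other named genes are those at the thresholds, called genes of lists, markers and neighbours of members, the last chosen after their values were seen. Classes by description and promoter motifs were not run, as no such table was used.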

Additional observations from a re-analysis of the deposited data

How the results depend on the processing

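The count of 39 members was 59 after median centring, which kept 37 of them, 44 after a second quantile normalization, 39 with the brightest probe set and 49 without array 3 of 0, 0.5, 1 and 2 h, which kept 27. It ran from 34 to 48 when single arrays were left out, and genes called in late against early from 838 to 1325. In late against early, median centring turned the majority of calls from rises to falls (615 rose and 822 fell, against 727 and 431). For 2 h against 0.5 h, limma called 54 genes, 86 with another variance model, 7 in a fit of those arrays alone and 33 without array 3 of the first 4 times. Members called as falls were then 3, 0 and 1, and they were 1 after median centring, 1 after a second quantile normalization and 4, with 1 rise, when dim genes were not tested. With the replicate block, 97 genes and 5 members were called as changed at this comparison, and 45 genes at 3 h. Same-numbered arrays deviated together with correlations of 0.018 to 0.031 between 4 and 6 h and of 0.033 to 0.168 between 0.5 and 2 h. Over all pairs of times these ran from -0.026 to 0.126 for repeat 1, from -0.01 to 0.075 for repeat 2 and from -0.03 to 0.223 for repeat 3. The main fit did not pair arrays by number, although in AT1G19020 repeat 2 was the highest array at every time. Whether same-numbered arrays belong together was not tested further. Leaving out single arrays gave 23 to 59 genes, with 23 to 30 when array 1 or 2 of 0.5 h or an array of 2 h was dropped, and 0 to 1 members. For 3 h, limma called 18 genes, 74 with another variance model, 32 with array weights, 80 without dim genes and 231 without array 3 of the first 4 times. Members below were then 3, 0, 4 and 3, and 1 member, AT5G40590, lay above in each of these. Single arrays gave 8 to 33 genes, 8 or 10 when array 1 or 2 of 3 h was dropped and 33 when array 3 of 0 h was, and 0 to 1 members. The causes were not tested. Counts at 6 h against 4 h stayed at 0 in all alternatives, and the members' medians kept their sign in all alternatives (from -0.32 to -0.19 for 2 h, from -0.16 to -0.12 for 3 h and from -0.08 to -0.03 for 6 h). The spread between 3 arrays a time and signal near background, which the values do not mark, limit what can be called.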

Other observations

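Probe sets without a single gene name were set against the same thresholds, with no gene named. Of 8495 such probe sets with a mean of at least 5, 102 lay within all of them, 1.2%, against 41 of 6175 named genes, 0.664%. Their course differed from that of the named members, although the difference was not tested. At 2 h 49 of the 102 lay below 0.5 h, with a median difference of 0.06, while 35 of the 39 members did so with a median of -0.24. The share of the step covered at 3 h had a median of 44.6% in these probe sets and 67.6% in the members. From 4 to 6 h 71 of the 102 lay lower, with a median of -0.16, against 27 of 39 members and -0.07.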
